A study of Mus musculus with 2 samples.

Results

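The interleukin-1 family and its decoys were described here through 10 genes of the mouse gum: the ligands Il1a, Il1b, Il1f9 and Il18, the antagonist Il1rn, the decoy receptor Il1r2, the receptor subunit Il1rap, and Nlrp3, Casp1 and Gsdmd of the inflammasome. They were chosen by symbol, each matched 1 feature in both libraries, and they are 10 of the 32285 genes counted. The series compared immune cells that had entered the gingiva of C57BL/6 mice in experimental periodontitis, with 1 single-cell library from wild-type (WT) animals and 1 labelled Otud1-/-, a loss of the deubiquitinase OTUD1. How many animals each library pooled, their age and sex, and which stretch of Otud1 was removed are not given in the sources used here. Each captured transcript carried a molecular tag (UMI) beside the barcode of its cell and was read near its 3′ end. It therefore counts once whatever its length. Levels of different genes are set side by side below as counted, and differences in capture between genes were not measured.

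Interleukin-1 is an alarm signal of damaged or infected tissue. IL-1α and IL-1β bind the same receptor, which needs the accessory protein IL-1RAP to signal, and IL-1β and IL-18 are made as precursors that caspase-1 cleaves after an inflammasome such as NLRP3 has assembled; gasdermin D then forms the pores through which they leave the cell. The signal is held back by the receptor antagonist, which occupies the receptor, and by IL-1R2, which binds the ligand and passes nothing on, and in periodontitis this family is known for driving inflammation and bone loss.

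Il1a and Il1b lie side by side on the minus strand of chromosome 2 (mm10, GENCODE M21), at chr2:129299610-129309972 and chr2:129364570-129371139. Il1f9, which encodes IL-36γ, and Il1rn lie elsewhere on the same chromosome, at chr2:24186476-24193568 and chr2:24336853-24351494. Il1r2 lies on the plus strand at chr1:40074079-40125231. The antisense gene Il1bos overlaps Il1b, and Gm37347 overlaps Il1r2 on its own strand. Whether the counting used strand is not given in the sources used here, so reads of such partners cannot be told apart from those of the members.

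The bases before the start of Il1b, Il1rn and Il1r2 are shown because the balance of agonist, antagonist and decoy turns on these 3 genes. Of the 10 members, 9 had a promoter window in the RefSeq table (GRCm38.p6), and Gsdmd had none. Each window below holds the 250 bases before a transcript start, 5′ to 3′ on the gene's strand, and capitals mark a match on either strand to 1 of 5 motifs: NF-kB (GGG and TTTCC with any 2 bases between), C/EBP (TTGCNNAA), PU.1 (GAGGAAGT), AP-1 (TGANTCA) and the E-box CACGTG. The windows are chr2:129371140-129371389 on the minus strand for Il1b, chr2:24345121-24345370 on the plus strand for the transcript start of Il1rn that carries a match to NF-kB (1 of 3 windows of that gene), and chr1:40085843-40086092 on the plus strand for Il1r2.
Il1b: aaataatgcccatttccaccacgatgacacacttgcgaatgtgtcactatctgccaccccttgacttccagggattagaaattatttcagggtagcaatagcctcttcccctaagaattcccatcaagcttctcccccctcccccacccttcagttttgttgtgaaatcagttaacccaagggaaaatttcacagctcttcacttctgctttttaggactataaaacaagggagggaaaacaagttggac
Il1rn: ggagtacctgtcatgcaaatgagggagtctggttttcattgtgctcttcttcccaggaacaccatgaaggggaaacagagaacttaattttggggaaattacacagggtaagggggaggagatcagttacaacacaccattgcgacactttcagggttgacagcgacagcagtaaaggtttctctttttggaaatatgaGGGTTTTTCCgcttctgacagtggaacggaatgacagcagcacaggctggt
Il1r2: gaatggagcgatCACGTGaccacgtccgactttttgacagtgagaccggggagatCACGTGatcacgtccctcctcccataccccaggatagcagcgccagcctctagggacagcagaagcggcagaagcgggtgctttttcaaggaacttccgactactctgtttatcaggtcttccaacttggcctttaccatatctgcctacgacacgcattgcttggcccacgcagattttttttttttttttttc
The Il1b window held none of the 5 motifs. The Il1rn window held 1 match to NF-kB, 51 bases before the start, a motif found in 1.41% of 32851 windows of the same length. That share is for windows not chosen by content, whereas this window was chosen for its match. The Il1rn and Il1r2 windows shown lie inside the gene spans given above, so they precede internal transcript starts. The Il1r2 window held CACGTG at 238 and 195 bases before the start, a motif found in 6.02% of windows, and Casp1 held it once, 137 bases before its start. Il1a held 1 match to AP-1 (TGANTCA), 12 bases before its start, and a second Il1rn window held another at 141 bases, against 6.75% of windows. A match describes these letters and not a bound factor.

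Filtering left 11414 WT cells (median depth 2085.5 UMIs) and 6486 cells in the library labelled Otud1-/- (4148.5 UMIs). Levels below are a gene's UMIs scaled to a fixed total for each cell class (counts per 1e+06, CPM), and classes were named from marker genes, so that "neutrophil" means neutrophil-like by those markers. With 1 library per genotype there was no replicate and no test was made: 95% intervals cover counting error only, and "higher" or "lower" means a ratio of at least 1.5 between the libraries. Otud1 itself was at 18.8 CPM in the WT library and 33.6 CPM in the library labelled Otud1-/-, which goes against the label, although a 3′ tag may lie outside the deleted stretch. Every direction below therefore rests on the label alone. Xist was found in 32.7% of WT cells and in 0.0463% of the others, while Y-linked transcripts were found in both, and the libraries shared 37 barcodes. Cells with Xist were thus almost confined to the WT library. Sex and genotype label cannot be fully told apart in the library ratios below.

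The ligands came from neutrophils, monocytes and macrophages. Il1b was the most abundant member. In neutrophils it reached 6680 CPM (WT) and 8224 CPM (labelled Otud1-/-), the order in which each pair of values is given below. Monocytes and macrophages followed at 2599 and 3495 CPM, and dendritic cells at 1370 and 2734 CPM. These 3 classes kept that order in both libraries, with no overlap of their counting intervals. Below them came plasmacytoid dendritic cells at 389 CPM and mast cells and basophils at 331 CPM in the WT library, whose intervals overlapped. In B, T and NK cells Il1b was at 45.9, 62.3 and 44.7 CPM in the library labelled Otud1-/- and at 75.4, 108 and 127 CPM in WT. The levels in these 5 classes were all under 10% of the neutrophil level of the same library, the limit below which a level was treated as possible background from free RNA.

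**Figure D1:**
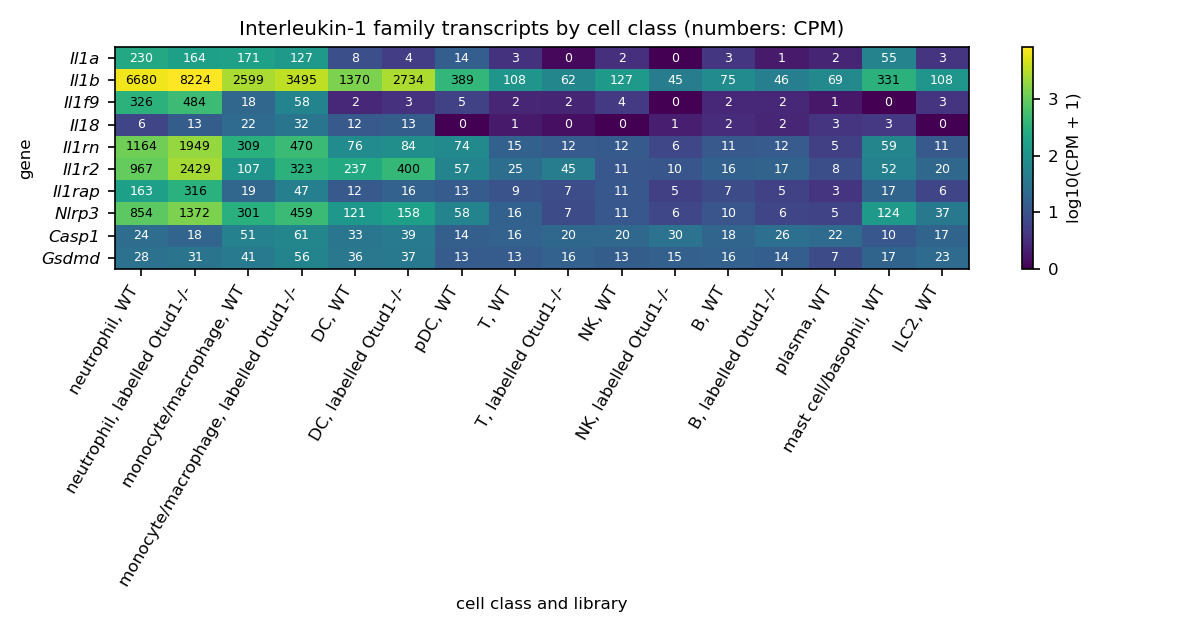
Level of each of the 10 genes (vertical axis) in each cell class and library with at least 100 cells (horizontal axis), coloured by log10(CPM + 1), with the CPM written in each cell. Il1b in neutrophils is highest in both libraries, at 6680 and 8224 CPM, and Casp1 and Gsdmd are low and spread over the classes.

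Il1a, which is active without cleavage, was found in the same myeloid cells at far lower levels: 230 and 164 CPM in neutrophils and 171 and 127 CPM in monocytes and macrophages. In dendritic cells it was only 8.14 and 4.18 CPM, treated as possible background, although Il1b was abundant there. Il1f9 was the most neutrophil-bound of the ligands. Neutrophils, at 326 and 484 CPM, held 75.9% and 74.8% of its UMIs. Il18 showed another pattern, with its highest level in monocytes and macrophages at 22.1 and 31.8 CPM, and these cells held 68.6% and 68.7% of its UMIs. In neutrophils Il18 was at 5.64 and 13.5 CPM, so the cells richest in Il1b had little of the other cleaved ligand.

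The antagonist, the decoy and the accessory subunit were all highest in neutrophils. Il1rn reached 1164 and 1949 CPM there, against 309 and 470 CPM in monocytes and macrophages and 76.0 and 84.5 CPM in dendritic cells. Il1r2 had a different second place. In the WT library it was at 967 CPM in neutrophils, 237 CPM in dendritic cells and 107 CPM in monocytes and macrophages. In the library labelled Otud1-/- the values were 2429, 400 and 323 CPM, in the same order. Dendritic cells thus had more decoy than antagonist UMIs in both libraries, and their Il1rn was under the limit for possible background. Il1rap was at 163 and 316 CPM in neutrophils and at 18.8 and 47.2 CPM in monocytes and macrophages.

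The inflammasome genes divided. Nlrp3, the sensor, followed the ligands, with 854 and 1372 CPM in neutrophils, 301 and 459 CPM in monocytes and macrophages, and 121 and 158 CPM in dendritic cells. Casp1, the protease, and Gsdmd, the pore-forming protein, did not. In neutrophils Casp1 was at 23.7 CPM (17.1 to 32.0) and 17.96 CPM (13.6 to 23.3), below monocytes and macrophages at 51.5 and 61.2 CPM. Gsdmd was at 28.2 and 30.8 CPM in neutrophils, 40.6 and 56.4 CPM in monocytes and macrophages, and 35.6 and 36.9 CPM in dendritic cells; in the WT library the intervals of the last pair overlapped. Both were also measured in B cells, where Casp1 was at 17.7 and 26.0 CPM, too near the myeloid level to count as background by the same limit of 10%. B cells held 12.03% and 23.95% of all Casp1 UMIs, and made up 17.95% and 44.0% of the cells.

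**Figure D2:**
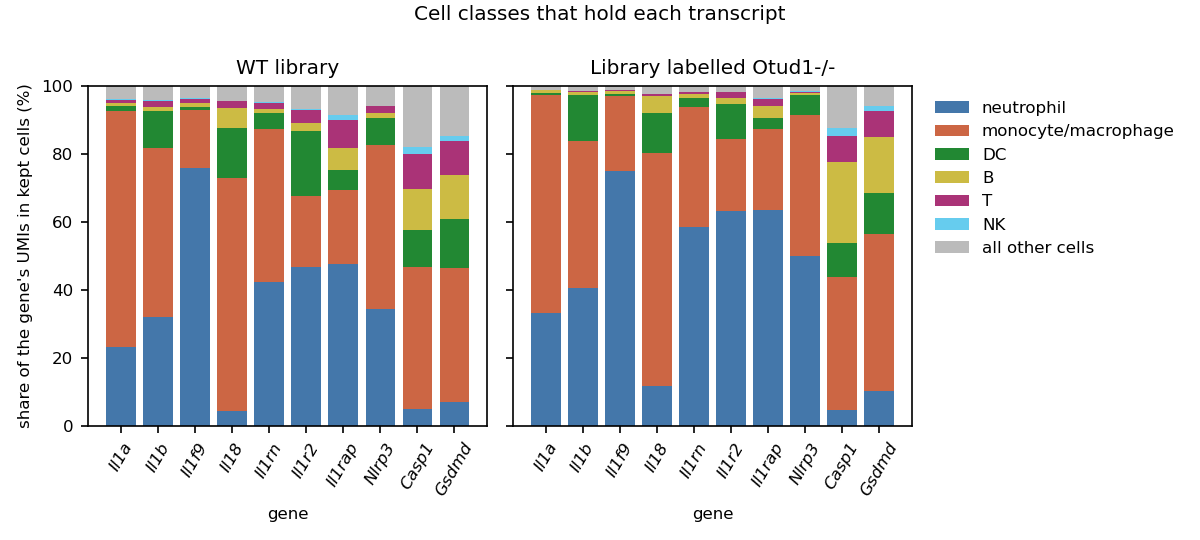
Share of each gene's UMIs in kept cells (vertical axis, percent) that lay in each cell class, for the 10 genes (horizontal axis), in the WT library (left) and the library labelled Otud1-/- (right). Neutrophils hold most of Il1f9 in both panels (75.9% and 74.8%), and monocytes and macrophages hold most of Il18 (68.6% and 68.7%).

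The first comparison asked how the members differed between the libraries within neutrophils, the cells named in the study's title. Of 9 members with enough UMIs to compare (a mean of at least 20 CPM and 30 UMIs in the higher library), 4 were higher in the library labelled Otud1-/- and 0 were lower. Over all 4191 genes compared in neutrophils, 16.6% were higher and 31.8% lower. The members' median log2 ratio was 0.57, against -0.15 for all genes compared. Of these 9, Il1r2 differed most, from 967 to 2429 CPM, a log2 ratio of 1.33 (1.25 to 1.41). Il1rap had a log2 ratio of 0.95 (0.76 to 1.15), Il1rn 0.74 (0.67 to 0.82) and Nlrp3 0.68 (0.60 to 0.77). The ligands compared differed less: Il1b had a log2 ratio of 0.30 (0.27 to 0.33), Il1f9 0.57 (0.43 to 0.71) and Il1a -0.49 (-0.68 to -0.30), none of them past the ratio of 1.5. Il18 was under the minimum for a comparison, with 10 and 42 UMIs and a log2 ratio of 1.19 (0.24 to 2.42). The intervals of Casp1 and Gsdmd included 0.

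Cells with more UMIs show more genes, so shares of positive cells were also taken after thinning each cell to 1000 UMIs, which left out 161 WT neutrophils and 65 of the others. Il1r2 was then found in 46.0% of WT neutrophils (42.2 to 49.8) and 84.1% of the others (81.4 to 86.5). Before thinning the shares were 59.7% and 93.7%, at median depths of 1554.5 and 2630 UMIs. Il1rn was found in 44.3% and 69.8% of the thinned cells and Nlrp3 in 40.8% and 60.8%. Il1b was in most cells, 88.9% and 95.8%. The libraries filled the neutrophil clusters described below unequally. In cluster 11 the cells labelled Otud1-/- had a median depth of 890 UMIs, so most of them were left out. Thinned shares are not given by cluster here. In B cells thinned the same way, with median depths of 2711 and 3452.5 UMIs, Il1r2 was found in 1.49% and 1.91% and Il1b in 8.04% and 4.98%; no empty droplets were used to measure free RNA itself.

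Neutrophils fell into 3 clusters, and the libraries filled them unequally. Cluster 6, led by Stfa2l1, Cstdc4 and Cxcr2, held 161 WT cells and 785 cells labelled Otud1-/-. Cluster 11, led by Retnlg, G0s2 and Wfdc21, held 585 and 91. Cluster 25, led by the granule genes Ngp, Camp and Ltf of immature neutrophils, held 102 WT cells and 0 of the others, and its Il1r2, Il1rn and Il1b were at 186, 87.7 and 1517 CPM. Without cluster 25 only 2 members, Il1r2 and Il1rap, were still higher in neutrophils, and Il1a was lower at a log2 ratio of -0.74. The shares of all genes in that selection are not given here.

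Within cluster 6 most of the class-wide differences were absent. None of 9 members was higher by the ratio of 1.5, where 6.46% of all genes were, and 1 was lower, where 11.6% of all genes were. Il1rn was at 1989 and 1988 CPM. Nlrp3 was at 1588 and 1398 CPM and Il1rap at 296 and 320 CPM, so antagonist, sensor and receptor subunit differed little between the libraries in these cells. Il1b was at 10833 and 8318 CPM, a log2 ratio of -0.38 (-0.42 to -0.34). Il1a was the member that was lower, at 383 and 160 CPM, a log2 ratio of -1.25 (-1.49 to -1.02). Il1r2 went the other way, from 1645 to 2450 CPM, a log2 ratio of 0.57 (0.48 to 0.67), just under the ratio of 1.5 and past it under both other scalings (0.75 and 0.78).

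Within cluster 11, 2 of 7 members were higher, where 16.2% of all genes were, and 0 were lower, where 31.3% were. Il1r2 went from 802 to 1960 CPM, a log2 ratio of 1.29 (1.08 to 1.495). Il1rap went from 125 to 224 CPM, a log2 ratio of 0.84 (0.21 to 1.43). The 15 neutrophil markers went from 53931 to 98307 CPM in this cluster, at median depths of 1277 and 890 UMIs. Per 100 neutrophil marker UMIs, Il1r2 was at 1.49 and 1.99, against 1.36 and 2.02 in cluster 6. The part of this marker difference in the ratios of cluster 11 was not tested. Il1b was at 5791 and 6125 CPM and Il1rn at 1003 and 1062 CPM, with intervals of the ratio that included 0. In both clusters with cells of each library, the interval of the Il1r2 ratio thus lay above 0, and among the members with enough UMIs to compare it had the largest ratio.

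RNA of other cells moved with these groups. The 13 B cell markers summed to 2064 CPM in WT neutrophils and 422 CPM in the others, with no marker at 0 in either, and ribosomal protein genes were 15.4% and 4.89% of UMIs. In cluster 6 the B cell markers were closer, at 503 and 390 CPM, with ribosomal shares of 5.38% and 4.60%. In cluster 11 they were at 3189 and 1137 CPM, with 19.4% and 11.3%. Their part in the member ratios was not tested. Scaling by TMM or by the median of ratios moved every neutrophil log2 ratio up by 0.55 or 0.66. That put 7 members past 1.5 and turned Il1a to 0.06 or 0.17 and Casp1 to 0.15 or 0.26. The same shift applied to all genes, so the shares of all genes given above do not hold under these scalings. In cells with a Y-linked UMI and no Xist UMI, the log2 ratio of Il1r2 in neutrophils was 1.15.

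**Figure D3:**
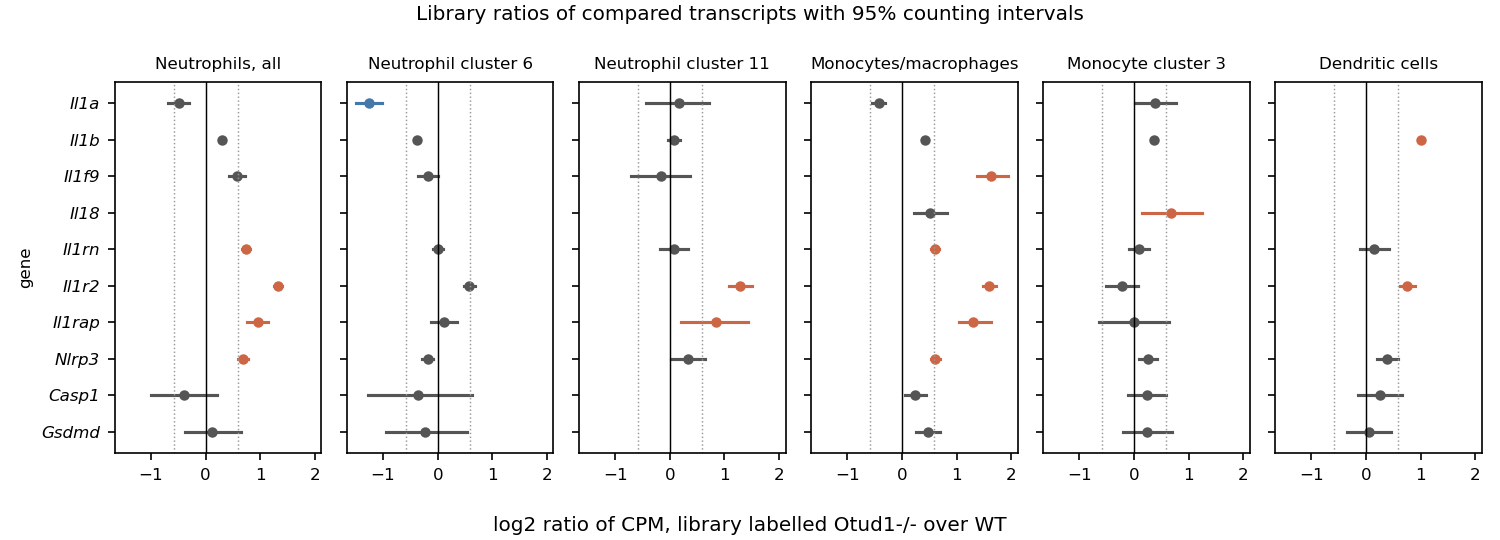
Log2 ratio of CPM in the library labelled Otud1-/- over WT (horizontal axis) for each gene with enough UMIs to compare (vertical axis), in neutrophils, neutrophil clusters 6 and 11, monocytes and macrophages, monocyte cluster 3 and dendritic cells. Points are ratios, bars are 95% counting intervals, dotted lines mark a ratio of 1.5, and points past them are red (higher) or blue (lower); Il1r2 is at 1.33, 0.57 and 1.29 in the first 3 panels.

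A ratio of UMIs within the same cells needs no scaling between libraries. In WT neutrophils there were 13.99 Il1r2 UMIs (13.3 to 14.7) for every 100 UMIs of Il1a and Il1b together, and in the library labelled Otud1-/- there were 29.0 (28.2 to 29.7). The same held in each cluster: 14.7 and 28.9 in cluster 6, and 13.4 and 30.8 in cluster 11. In cluster 25, which had WT cells only, the value was 12.2. The 3 WT clusters therefore had overlapping intervals of decoy per agonist transcript, although their Il1b ranged from 1517 to 10833 CPM, and both clusters of the other library stood well above them.

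The antagonist did not share this pattern. Il1rn was at 16.8 UMIs per 100 agonist UMIs in WT neutrophils (16.1 to 17.6) and 23.2 in the others (22.6 to 23.9). In cluster 6 the values were 17.7 and 23.5. In cluster 11 they were 16.7 in each library, with intervals of 15.6 to 17.9 and 13.9 to 19.98. Relative to the agonists, then, the decoy differed between the libraries in both clusters, and the antagonist beyond its interval only in cluster 6 of these. In cluster 6 Il1rn itself was at 1989 and 1988 CPM, while Il1b went from 10833 to 8318 CPM and Il1a from 383 to 160 CPM. On the CPM scale the difference in Il1rn per agonist there lay in the agonists. Under TMM and the median of ratios, Il1rn had log2 ratios of 0.17 and 0.20 in cluster 6, and Il1b -0.21 and -0.18. The split between antagonist and agonists thus depended on the scaling. On the CPM scale part of the difference in Il1r2 per agonist also lay in the agonists, as Il1r2 itself had a log2 ratio of 0.57 in cluster 6.

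**Figure D4:**
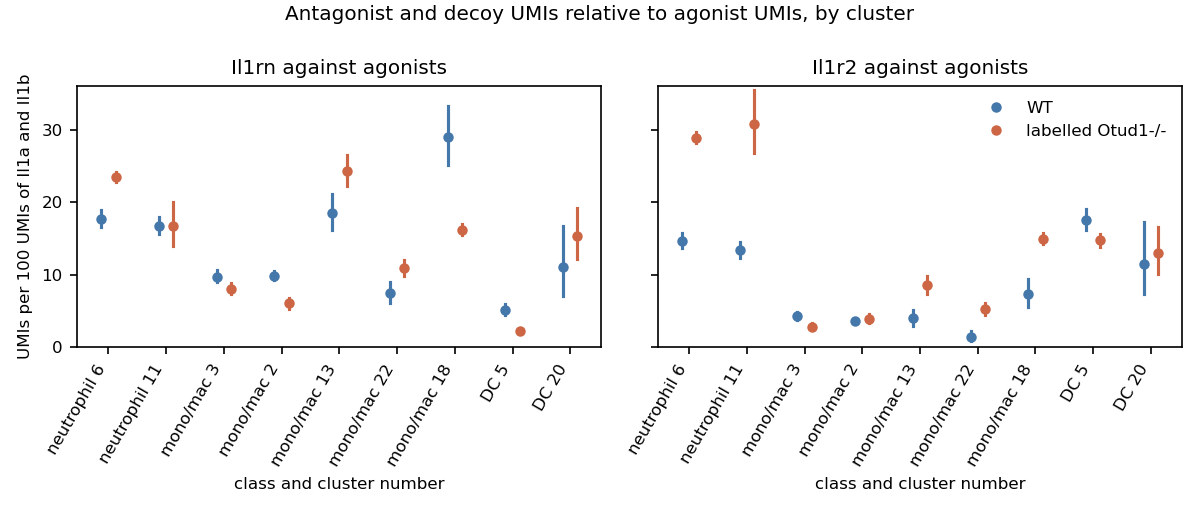
Il1rn UMIs (left) and Il1r2 UMIs (right) per 100 UMIs of Il1a and Il1b (vertical axis) in myeloid clusters (horizontal axis), with 95% counting intervals. Il1r2 in neutrophil clusters 6 and 11 is at 14.7 and 13.4 in the WT library (blue) and at 28.9 and 30.8 in the library labelled Otud1-/- (red), while monocyte cluster 3 is at 4.24 and 2.83.

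In monocytes and macrophages all 10 members could be compared, and 5 were higher and 0 lower, where 5.94% of 5217 genes were higher and 4.18% lower. Il1r2 went from 107 to 323 CPM, a log2 ratio of 1.59 (1.48 to 1.72). Il1f9 went from 18.3 to 57.6 CPM (1.63, 1.37 to 1.94) and Il1rap from 18.8 to 47.2 CPM (1.31, 1.04 to 1.63). Il1rn and Nlrp3 were just past the limit, at log2 ratios of 0.61 each, and both intervals (0.53 to 0.68 and 0.53 to 0.69) reached below it. Il1b had a log2 ratio of 0.43 (0.40 to 0.45), Il18 0.51 (0.23 to 0.82), Gsdmd 0.47 (0.26 to 0.69), Casp1 0.25 (0.05 to 0.45) and Il1a -0.43 (-0.55 to -0.31). The median over the 10 members was 0.56, against 0.03 for all genes compared.

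These class-wide differences rested largely on cluster 18, led by Gbp2, Cfb and Cxcl9, which held 25 WT cells and 190 of the others. In the latter it had Il1r2 at 643 CPM and Il1f9 at 137 CPM. Without it 1 member, Il1rap, was still higher (log2 ratio 0.68), Il1r2 was under the limit at 0.56, and Il1f9 was at -0.01. The share of all genes higher without this cluster is not given here. Cluster 18 also held neutrophil marker RNA, with the 15 markers summing to 11077 and 22937 CPM, against 78216 and 120505 CPM in neutrophils themselves.

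The other clusters differed in that RNA as well. In monocyte cluster 3 (912 and 214 cells), led by F13a1, Apoc2 and Chil3, the neutrophil markers went from 4368 to 865 CPM, and 4 of them (Ngp, Camp, Ltf and Ly6g) were at 0 in the library labelled Otud1-/-. There Il1r2 was at 114 and 98.6 CPM, a log2 ratio of -0.21 (-0.50 to 0.08), so that Il1r2 per 100 neutrophil marker UMIs was 2.61 and 11.4. Of 9 members in cluster 3, 1 (Il18, 23.9 and 38.7 CPM) was higher and 0 lower, where 4.18% and 10.3% of all genes were. In macrophage cluster 13 (378 and 117 cells), led by Pf4, Mrc1 and Ccl7, the neutrophil markers went from 1165 to 4292 CPM. There 6 of 9 members were higher and 0 lower, where 10.5% and 4.9% of all genes were, and Il1r2 went from 43.4 to 147 CPM, a log2 ratio of 1.75 (1.33 to 2.21), or 3.73 and 3.43 per 100 neutrophil marker UMIs. In cluster 22 (104 and 54 cells), led by Retnla, the markers went from 411 to 3502 CPM, and 2 of 7 members were higher and 0 lower, where 13.4% and 6.13% of all genes were: Il1r2, from 51.0 to 201 CPM, and Il1rn, from 265 to 417 CPM. In cluster 2 (1100 and 127 cells), led by Ms4a7 and the complement genes C1qa and C1qc, 0 of 7 members were higher or lower, where 4.12% and 9.05% of all genes were, and Il1r2 was at 124 and 180 CPM. Per 100 neutrophil marker UMIs, Il1r2 was at 7.56 and 6.81 in cluster 2 and at 12.4 and 5.74 in cluster 22. In cluster 18 it was at 2.73 and 2.81. The neutrophils had 1.36 and 2.02 in cluster 6 and 1.49 and 1.99 in cluster 11. How much of the Il1r2 in the monocytes and macrophages came from neutrophil RNA was not tested.

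The macrophage clusters differed more from each other than between libraries in Il1a. In the WT library it was at 339 CPM in cluster 2, 99.6 CPM in cluster 22, 54.2 CPM in cluster 3 and 49.6 CPM in cluster 13. In the library labelled Otud1-/- cluster 2 was again highest, at 490 CPM. Cluster 2 had Il1b at 3049 and 4079 CPM, and cluster 13 had it at 1046 and 1650 CPM. Per 100 agonist UMIs, cluster 13 had 18.5 and 24.2 Il1rn UMIs against 9.87 and 6.03 in cluster 2. Antagonist per agonist transcript was thus higher in cluster 13 than in cluster 2 of both libraries. C1q genes were among the leading genes of both clusters. In cluster 22, led by Retnla, the values were 7.42 and 10.9.

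Dendritic cells differed in their agonist. Of 6 members compared, 2 were higher and 0 lower, where 2.28% of 4820 genes were higher and 6.95% lower. Il1b went from 1370 to 2734 CPM, a log2 ratio of 0.997 (0.94 to 1.05), and from 47.4% to 66% of cells thinned to 1000 UMIs. Il1r2 went from 237 to 400 CPM, a log2 ratio of 0.75 (0.62 to 0.89). Both were also higher in cluster 5, led by Cd209a and Clec10a, at log2 ratios of 0.95 and 0.69, where 2.47% of all genes were higher and 7.99% lower. Because agonist and decoy both moved, Il1r2 per 100 agonist UMIs was 17.2 (15.9 to 18.7) and 14.6 (13.8 to 15.5), and Il1rn per 100 was 5.51 (4.80 to 6.31) and 3.09 (2.72 to 3.49). In dendritic cells, then, decoy per agonist was not higher in the library labelled Otud1-/-. The 15 neutrophil markers summed to 190 and 539 CPM there, with Ly6g at 0 in both libraries.

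In lymphoid cells few members could be compared, and all but Casp1 were under the limit for possible background. Il1b was lower in T cells (log2 ratio -0.78), B cells (-0.71) and NK cells (-1.49), where 3.82%, 1.95% and 11.1% of all genes were lower. Il1r2 was higher in T cells, from 25.4 to 44.9 CPM, a log2 ratio of 0.81 (0.51 to 1.14), where 0.821% of all genes were higher, and 0 members were higher in B cells, where 0.703% of all genes were. Casp1 in B cells had a log2 ratio of 0.54 (0.23 to 0.89). The ratio of Il1r2 to Il1b UMIs differed between classes of the same library beyond the counting intervals. Cluster 1 of the T cells, led by Tnfrsf4, Ctla4 and Ikzf2, had 29.2 (23.6 to 35.8) and 133 (103 to 171) Il1r2 UMIs per 100 Il1b UMIs. T cell cluster 7, led by Dapl1 and Lef1, had 8.86 (3.45 to 19.1) and 42.9 (27.6 to 65.2), and neutrophil cluster 6 had 15.2 and 29.5. In cluster 1 Il1r2 went from 35.9 to 73.7 CPM, a log2 ratio of 1.03 (0.68 to 1.40), and Casp1 was also higher and Il1b lower, where 5.42% of all genes were higher and 2.61% lower. The part of free RNA in these values was not tested.

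**Figure D5:**
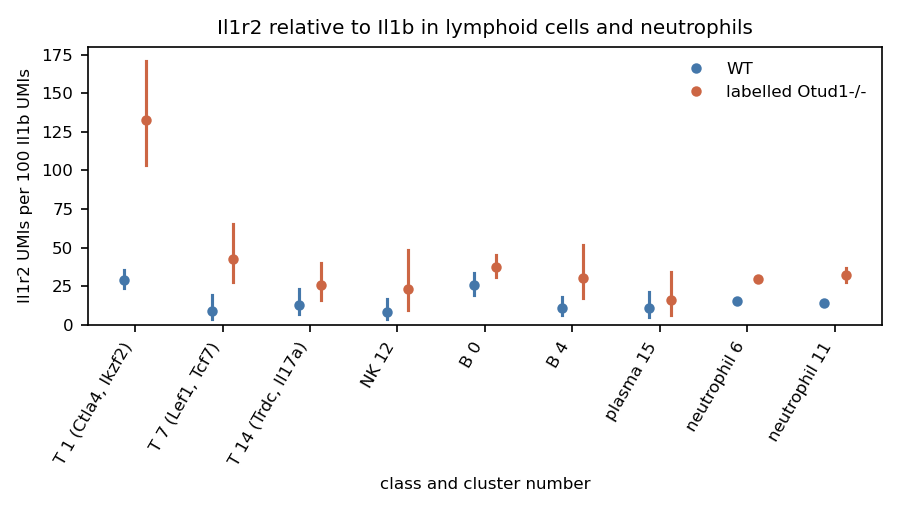
Il1r2 UMIs per 100 Il1b UMIs (vertical axis) in lymphoid clusters and both neutrophil clusters (horizontal axis), WT in blue and the library labelled Otud1-/- in red, with 95% counting intervals. T cell cluster 1 is highest in both libraries, at 29.2 and 133. In the WT library its interval (23.6 to 35.8) overlaps that of B cell cluster 0, at 25.5 (19.4 to 33.3).

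The wider pathway was read from 35 other genes in 5 groups: receptors, other ligands and antagonists, negative regulators, adaptors and kinases, and other inflammasome and pyroptosis genes. In neutrophils 18 could be compared, of which 6 were higher and 3 lower, beside the 16.6% and 31.8% of all genes given above. Mefv, which encodes the inflammasome sensor pyrin, had the largest ratio, at 226 and 537 CPM, a log2 ratio of 1.24 (1.09 to 1.41). Il18rap, a subunit of the IL-18 receptor, was at 119 and 239 CPM (1.002, 0.78 to 1.23). Casp8, a caspase of cell death, had the smallest, at 33.3 and 14.4 CPM (-1.18, -1.80 to -0.62). In monocytes and macrophages 5 of 20 were higher and 0 lower, led by Il18rap (1.48, 1.16 to 1.91) and by Il18bp, the soluble inhibitor of IL-18, at 15.6 and 34.9 CPM (1.13, 0.83 to 1.49). Il18rap was at 11.3 and 32.4 CPM there, and its WT level was under the limit for possible background. Il18bp was among the leading genes of cluster 18, which held 25 WT cells and 190 of the others. Their ratios without that cluster are not given here. In dendritic cells Mefv was higher (0.98) and Txnip lower (-0.73) among 17 compared.

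In T cells 1 of 18 pathway genes, Irak2, was lower (-0.63) and 0 were higher. In B cells 1 of 15, Tnfaip3, the ubiquitin-editing enzyme A20, was lower (-0.72) and 0 were higher. In NK cells 2 of 14 were higher, Il18rap (0.79) and Map3k7 (0.74, -0.15 to 1.71), where 6.86% of all genes were, and Txnip was lower (-0.81). Summed over the 6 classes, 14 of 102 comparisons of pathway genes were higher and 7 lower, and 12 of 30 comparisons of members were higher and 3 lower. Summed the same way over all genes, 5.14% of comparisons were higher and 9.19% lower, and these shares differed widely between the classes, as given above. The comparisons share libraries and are not independent.

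Of the receptors for these ligands, Il1r1 and Il18r1 are given here as chosen after their values were seen. Il1r1, the signalling receptor of IL-1, had 2 and 3 UMIs in all neutrophils, and was at 21.5 and 26.0 CPM in T cells. Il1rl1, the IL-33 receptor and a marker of type 2 cells, was at 1081 and 1949 CPM in mast cells and basophils and at 620 and 772 CPM in ILC2, although these classes held only 21 and 32 cells in the library labelled Otud1-/-. Il18r1, the other IL-18 receptor subunit, was at 93.2 and 140 CPM in NK cells and 81.8 and 87.7 CPM in T cells. Neutrophils had Il18rap at 119 and 239 CPM but Il18r1 at only 15.2 and 12.2 CPM.

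Likeness of pattern was measured as Pearson's r of log2(CPM + 1) over 16 profiles (a class in a library with at least 100 cells) among 6587 genes. These profiles share libraries, depth and the contrast of myeloid with lymphoid cells, so r is a description. Il1b was most like Mcemp1 (0.99), Tnfaip2 (0.99) and Mefv (0.99). Il1r2 was most like Adam8 (0.98), Mthfs (0.97) and Mcemp1 (0.96), and Il1rn most like Ccr1, Lilra6 and Cd14 (0.99 each). Il1f9 was most like Acta2, Fpr2 and Mrgpra2b (0.98 each), and Il1a most like Pla2g7, Hmox1 (0.97 each) and C5ar1 (0.96). Nlrp3 was most like Gpr35 (0.99), Tnfaip2 and Nfe2l2 (0.98 each), and Il1rap most like Amer2 (0.98), Nfe2 and Cln3 (0.97 each). Casp1 had the least similar partner, Pgam1 (0.86), and its r with Il1b was only 0.42. Gsdmd was most like Camkk2 (0.95), and Il18 most like Plod3 (0.91). Among the members, Nlrp3 and Il1b (0.97), Nlrp3 and Il1rn (0.97) and Il1b and Il1rn (0.96) were the closest pairs.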

How the data were processed

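The authors deposited whole-number counts of UMIs, not normalised, for each gene in each barcode, from 10x Genomics 3′ version 3.1 libraries, per the labels' protocols and the file headers. The build was mm10, with Seurat 3.2.3 and Cell Ranger 5.0.0 per the submitters' processing notes, whereas the file headers name Cell Ranger 6.0.1. The libraries held 44878537 (WT) and 44083735 UMIs in 13267 and 8109 barcodes.

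Barcodes under 200 genes or over 15% mitochondrial UMIs were dropped, and the highest doublet scores were removed at 0.8% per 1000 barcodes (1355 and 450 cells). Both libraries were clustered together (2000 variable genes, 30 components, 20 neighbours, Leiden resolution 1; scikit-learn 1.9.0, leidenalg 0.10.2), with the members, Otud1, sex-linked, ribosomal, mitochondrial and antigen receptor genes left out of the variable genes. The 29 clusters were named from marker lists: the class with the most markers among a cluster's top 50 genes, at least 3, without a tie. Cycling and unnamed clusters were left out of the comparisons. The members, lists and markers were chosen with earlier results of these data known.

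Counts were summed per class and library and scaled to CPM. Ratios used a prior of 0.5 CPM and genes with a mean of at least 20 CPM and 30 UMIs in the higher library, in the 6 classes with at least 100 cells in both libraries. Intervals are exact Poisson for levels, Clopper-Pearson for shares and conditional binomial for ratios. A level under 10% of that in the highest class of the same library was treated as possible background. The ratio script was tested on simulated counts. All members are described; at most 3 pathway genes were named a class, those with the most extreme ratios, beside genes that mark a cell type. Other filters, scalings (edgeR 4.0.16), cluster settings and cell selections were tried.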

Additional observations from a re-analysis of the deposited data

How the results depend on the processing

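Across the alternatives 260 of 358 log2 ratios of members stayed within the counting interval of the reported value and 98 lay outside it. In all 20 changed sign, 5 of them ratios past 1.5 in the reported comparison. In 1 cluster per class, the one with the most cells in the smaller library, Il1rn (-0.00042) and Nlrp3 (-0.18) in neutrophils and Il1r2 (-0.21) and Il1f9 (-1.43) in monocytes and macrophages changed sign among the ratios past 1.5. Il1b (-0.38), Il1f9 (-0.18) and Gsdmd (-0.23) in neutrophils, Il1a (0.39) in monocytes and macrophages and Il1rn (-0.30) in dendritic cells also did. In that setting the count of members higher in neutrophils was 0 and lower 1, and the sum of higher calls over the classes was 4. Without cluster 18, an alternative chosen after seeing the data, Il1f9 in monocytes and macrophages was at -0.0113 and the cause was not tested. Also chosen after seeing the data, cluster 11 alone gave 2 members higher in neutrophils, and leaving out cluster 25 gave 2 higher and 1 lower. 1 member (Il1a) was lower in neutrophils with at most 5% mitochondrial UMIs, with doublets kept, at Leiden resolution 2 and in cells with a Y-linked UMI and no Xist UMI. Il1a (0.16) and Il1f9 (-0.15) changed sign in cluster 11 alone, Gsdmd in neutrophils (-0.03) and dendritic cells (-0.22) and Il1rn in dendritic cells (-0.13) in the Y-linked selection, and Gsdmd in dendritic cells (-0.03) at resolution 0.5. TMM and median of ratios scaling turned Il1a and Casp1 in neutrophils above 0, each put 7 members higher in neutrophils, and gave 26 and 27 higher calls of pathway genes, with 4 lower under the latter. A minimum of 50 CPM and 100 UMIs left 9 higher and 3 lower pathway calls because fewer genes were compared. No minimum gave 24 and 25, with 14 lower calls of members. Shares of all genes are given only for the reported comparison and for some single clusters. The other counts in this paragraph have no such share beside them.

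The balances were recomputed in 3 settings and kept their direction between the libraries in each. They did not in every cluster. In monocyte cluster 3 Il1r2 went from 4.24 to 2.83 and Il1rn from 9.74 to 8.02 per 100 agonist UMIs. In the class the values were 3.86 to 8.93 and 11.1 to 12.98. Il1rn per 100 agonist UMIs also went from 9.87 to 6.03 in cluster 2 and from 28.9 to 16.2 in cluster 18. It went the way of the class in cluster 13 (18.5 to 24.2) and cluster 22 (7.42 to 10.9). With doublets kept, WT monocytes and macrophages had 11.7 Il1rn and 5.08 Il1r2 UMIs per 100 agonist UMIs, and the other library 9.91 Il1r2 UMIs. With at most 5% mitochondrial UMIs the WT values were 10.5 and 3.58. In cells with a Y-linked UMI and no Xist UMI, Il1r2 was at 3.03 in WT monocytes and macrophages, and neutrophils of the library labelled Otud1-/- had 24.2 Il1rn and 28.0 Il1r2 UMIs. No paired analysis was possible because each genotype had 1 library. Casp1 and Gsdmd rested on 42 to 96 UMIs in neutrophils of each library, and the intervals of their ratios included 0.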

Other observations

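Il33, the alarmin of the interleukin-1 family that signals through Il1rl1, was read in fibroblasts, a class too small to compare. It had 43 UMIs in 34 fibroblasts of the library labelled Otud1-/- (123 CPM, 89.2 to 166) and 0 in 29 WT fibroblasts, where a count of 0 allows up to 38.9 CPM. In the fibroblasts of the library labelled Otud1-/-, Il1b was at 854 CPM, and 83.2% of its UMIs came from 1 cell.

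Decoy and antagonist were read in the same neutrophils. After thinning to 1000 UMIs, 53.2% of 316 WT neutrophils with an Il1r2 UMI also had an Il1rn UMI (47.5 to 58.8), against 36.7% of 371 without (31.7 to 41.8). In the library labelled Otud1-/- the shares were 69.5% of 682 (65.9 to 72.9) and 71.3% of 129 (62.7 to 78.9), whose intervals overlap. The WT neutrophils pooled clusters 6, 11 and 25, which differed in both genes. In WT clusters 6 and 11 Il1r2 was at 1645 and 802 CPM and Il1rn at 1989 and 1003 CPM. In the other library most neutrophils, 785 cells, were in cluster 6. The part of this mix in the shares was not tested. Cells within a library are not replicates, and the difference between the libraries was not tested.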
